A study of Mus musculus with 10 samples.

Results

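Chromatin at 10 genes that encode the main secreted products of the hepatocyte was examined in mouse liver cells with and without Arid1a. The genes were Alb, Afp, Ttr, Apoa1, Apoa2, Apob, Apoc3, Fga, Fgb and Fgg, a list of 10 out of 21938 protein-coding genes. The list was given by name with no threshold on a measured value, although it was drawn up when earlier results of these data were known. Each gene was read as its annotated body plus 20 kb on each side in mm10 (GRCm38), and all 10 genes were found. Because neighbours lie close together, the 10 windows merged into 6 loci covering 387 kb: Alb with Afp, the 3 fibrinogen genes, Apoa1 with Apoc3, and Apoa2, Apob and Ttr each alone. Genes of 1 locus therefore share summits and are not independent of each other.

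The cells were AB17, primary hepatocytes from the liver of an Arid1a fl/fl mouse (C57BL/6). They had been immortalized with the SV40 large T antigen and also received a virus carrying a mutant H-Ras (pLPC-H-Ras). Both genotypes share this background. Infection with the control adenovirus Ad-GFP gave the wildtype (WT) cells, which keep Arid1a. Infection with Ad-Cre, an adenovirus expressing Cre recombinase, gave the knockout (KO, Arid1a-/-) cells. Chromatin immunoprecipitation with sequencing (ChIP-seq) was done for Arid1a, Brg1, Ctcf and Rad21 in WT cells, and for the repressive marks H3K9me3 and H3K27me3 in WT and KO cells. Of 10 samples, 8 had peak lists and 2 were inputs whose reads were not analysed here. Every group was 1 library, so no value has a replicate error, no p-value is given, and differences between WT and KO are differences between these libraries. SWI/SNF and cohesin were profiled in WT cells only, so genotypes can be set side by side for the marks alone. Sequencing depth is unknown from the lists, and the number of summits follows depth and antibody as well as occupancy. Peak lists hold no expression, so the hepatocyte label could not be checked against marker genes. A summit is the highest point of a called peak, and its strength is the −log10 q-value, compared here only within its own list. The lists held 70408 to 143835 summits, and the shorter H3K27me3 list was that of KO cells (86050, against 109601 in WT).

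The plasma proteins encoded by these genes are made mainly by hepatocytes and secreted into the blood. Albumin and its fetal relative alpha-fetoprotein carry small molecules, transthyretin carries thyroid hormone and the retinol-binding protein, apolipoproteins build and steer lipoprotein particles, and the 3 fibrinogen chains assemble into the precursor of the blood clot. SWI/SNF is a remodeler that slides and ejects nucleosomes. Brg1 is its ATPase, and Arid1a is a DNA-binding subunit of one form of the complex. Cohesin, of which Rad21 is the ring-closing subunit, extrudes chromatin loops and halts at DNA-bound Ctcf. H3K27me3 is laid down by Polycomb over genes that are kept off, whereas H3K9me3 marks constitutive heterochromatin.

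The sequence context of the strongest architectural sites is shown first, since the pattern of the marks is described against them. At the loci 10 Ctcf summits reached a −log10 q-value of 10, and each of them had a Rad21 summit within 144 bp. The lines below give 101 bases of the GRCm38 plus strand centred on 6 of the summits, with capitals on the best match, on either strand, to the Ctcf core letters CCANNAGNNGGC with at most 1 mismatch. The stretches were chr12:7978650-7978750 in an Apob intron, chr9:46229989-46230089 in a coding exon of Apoa1, chr1:171220986-171221086 in an intron of Tomm40l next to Apoa2, chr5:90500911-90501011 in an Afp intron, chr3:82999168-82999268 in an intron of the non-coding gene Gm30097 before Fgg, and chr3:83053886-83053986 between Fgb and Plrg1.
Apob intron: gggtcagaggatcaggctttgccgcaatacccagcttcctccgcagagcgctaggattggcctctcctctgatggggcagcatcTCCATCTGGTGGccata
Apoa1 exon: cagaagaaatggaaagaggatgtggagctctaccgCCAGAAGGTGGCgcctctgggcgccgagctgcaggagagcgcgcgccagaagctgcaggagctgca
Apoa2 side: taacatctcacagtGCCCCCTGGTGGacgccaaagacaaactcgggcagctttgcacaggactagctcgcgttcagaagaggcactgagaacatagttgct
Afp intron: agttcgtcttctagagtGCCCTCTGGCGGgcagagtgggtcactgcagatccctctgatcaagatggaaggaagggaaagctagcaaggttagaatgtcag
Fgg side: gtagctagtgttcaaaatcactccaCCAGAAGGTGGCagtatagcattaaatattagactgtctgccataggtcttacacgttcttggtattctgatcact
Fgb side: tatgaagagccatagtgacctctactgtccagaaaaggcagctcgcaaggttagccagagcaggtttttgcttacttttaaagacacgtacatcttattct
The match was exact at the Apoa1, Apoa2 and Fgg sites. It carried 1 mismatch at the Apob and Afp sites, and the window at the Fgb site held none. Over all 10 strong sites, 6 windows held a match. Of 24822 Ctcf summits this strong in the genome, 62.9% held one (30.9% exact), against 8.24% (0.854% exact) at positions moved by 2 kb.

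Of the 10 genes, 8 had an entry in the RefSeq (GRCm38.p6) promoter table, and Ttr and Apoc3 did not. Promoters are shown for 4 genes that differ in what was called there: Afp with Arid1a and Brg1 summits near the start, Apob with a Rad21 summit inside the printed bases, Fga with H3K27me3 in both genotypes, and Alb with no summit of any list within 2 kb. Capitals mark matches, on either strand, to the C/EBP letters TTGCNNAA and the FOXA letters TGTTTNC, consensus letters of liver-enriched transcription factors. All 4 stretches are on the plus strand and end before the first annotated start: chr5:90490464-90490713 (Afp), chr12:7977427-7977647 (Apob), chr3:83025903-83026075 (Fga) and chr5:90460620-90460869 (Alb).
Afp: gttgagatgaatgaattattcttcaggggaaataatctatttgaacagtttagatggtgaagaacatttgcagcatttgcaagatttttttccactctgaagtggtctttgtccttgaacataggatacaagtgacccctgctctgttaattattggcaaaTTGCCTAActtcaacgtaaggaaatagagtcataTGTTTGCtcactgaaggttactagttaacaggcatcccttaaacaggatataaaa
Apob: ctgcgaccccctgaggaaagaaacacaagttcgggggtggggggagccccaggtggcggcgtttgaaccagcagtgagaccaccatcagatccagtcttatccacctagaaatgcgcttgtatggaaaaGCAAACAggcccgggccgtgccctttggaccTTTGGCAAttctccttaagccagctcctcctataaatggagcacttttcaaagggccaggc
Fga: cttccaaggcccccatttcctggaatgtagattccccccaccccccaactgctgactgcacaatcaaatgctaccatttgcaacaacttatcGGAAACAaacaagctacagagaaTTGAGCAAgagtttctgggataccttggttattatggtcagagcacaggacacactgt
Alb: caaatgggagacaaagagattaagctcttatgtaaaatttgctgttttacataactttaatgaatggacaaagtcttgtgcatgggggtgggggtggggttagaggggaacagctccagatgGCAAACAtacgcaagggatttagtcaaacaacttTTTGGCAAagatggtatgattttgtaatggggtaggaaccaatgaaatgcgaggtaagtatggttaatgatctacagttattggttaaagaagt
The table held 9 entries for the 8 genes, Apoa2 having 2 starts. The C/EBP letters stood within 250 bases before the start in 6 of the 9 entries, and in 8.96% of all 20150 coding promoters. The FOXA letters stood in 7 of the 9, and in 15.9% of all. The HNF1 letters GTTAATNATTNAC and the HNF4 letters CAAAGTCCA stood in none of the 9 and in 0.0447% and 0.402% of all promoters. Matches describe letters and do not show binding.

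H3K27me3 was the list in which the plasma protein loci stood highest by number of summits. The 6 loci held 71 WT summits of this mark, where the average density of their chromosomes gives 15.5, and 46 KO summits, where it gives 12.2. The strength of these summits did not stand out in the same way. Their median −log10 q-values were 2.42 in WT and 2.75 in KO cells, beside 2.55 and 2.75 over the whole lists. A value of 5 was reached by 5 of the 71 WT summits, a smaller share than in the list (11.3%). In KO cells 7 of the 46 summits reached it, a larger share than in the list (11.8%). No summit of either genotype reached 10, beside 2.29% and 2.03% of the WT and KO lists. The median over the 10 genes was 2.04 summits per 10 kb in WT and 2 in KO cells, beside medians of 0.13 and 0 over all coding genes. At least 1 H3K27me3 summit lay in the window of 9 of 10 genes in WT and of the same 9 in KO cells, beside 54.2% and 46.3% of all coding genes. The exception in both was Ttr. Ctcf and Rad21 were above the chromosome average (26 summits each, against 13.1 and 14.6) but not above coding genes, with medians over the 10 genes of 0.473 and 0.517 per 10 kb beside 0.642 and 0.672 over all coding genes. Arid1a and Brg1 were close to it (16 against 12, and 14 against 13.8), and H3K9me3 was below it in WT (13 against 22.3) and in KO cells (7 against 21.9). The heatmap of summit counts shows how unevenly these totals were spread.

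**Figure D1:**
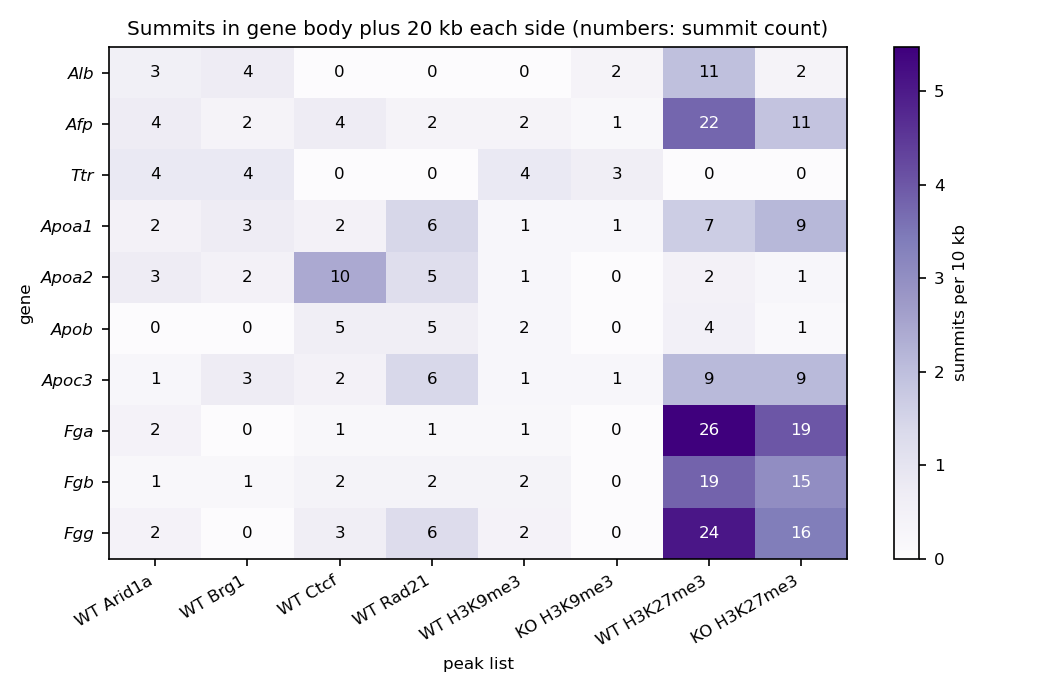
Summit counts (numbers) and summits per 10 kb (shade) for each of the 10 genes (rows) in each of the 8 peak lists (columns), over the gene body plus 20 kb each side. The darkest cells are H3K27me3 at Fga, Fgg, Afp and Fgb, and Ttr holds 0 H3K27me3, Ctcf and Rad21 summits.

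The order of the genes by H3K27me3 density in WT cells ran from Fga (26 summits, 5.47 per 10 kb) and Fgg (24, 5.07) through Fgb (19, 3.82) and Afp (22, 3.78) to Apoc3 (9, 2.11), Alb (11, 1.97), Apoa1 (7, 1.67), Apob (4, 0.505), Apoa2 (2, 0.484) and Ttr (0). Only 0.1% of coding genes were at least as dense as Fga and 0.269% as dense as Fgg. In KO cells the order was Fga (19 summits, 4 per 10 kb), Fgg (16, 3.38), Fgb (15, 3.02), Apoa1 (9, 2.15), Apoc3 (9, 2.11), Afp (11, 1.89), Alb (2, 0.359), Apoa2 (1, 0.242), Apob (1, 0.126) and Ttr (0). The fibrinogen genes led in both genotypes, and Afp and Alb stood lower in the KO order. With 1 library per genotype, neighbours in either order cannot be told apart beyond a replicate spread.

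**Figure D2:**
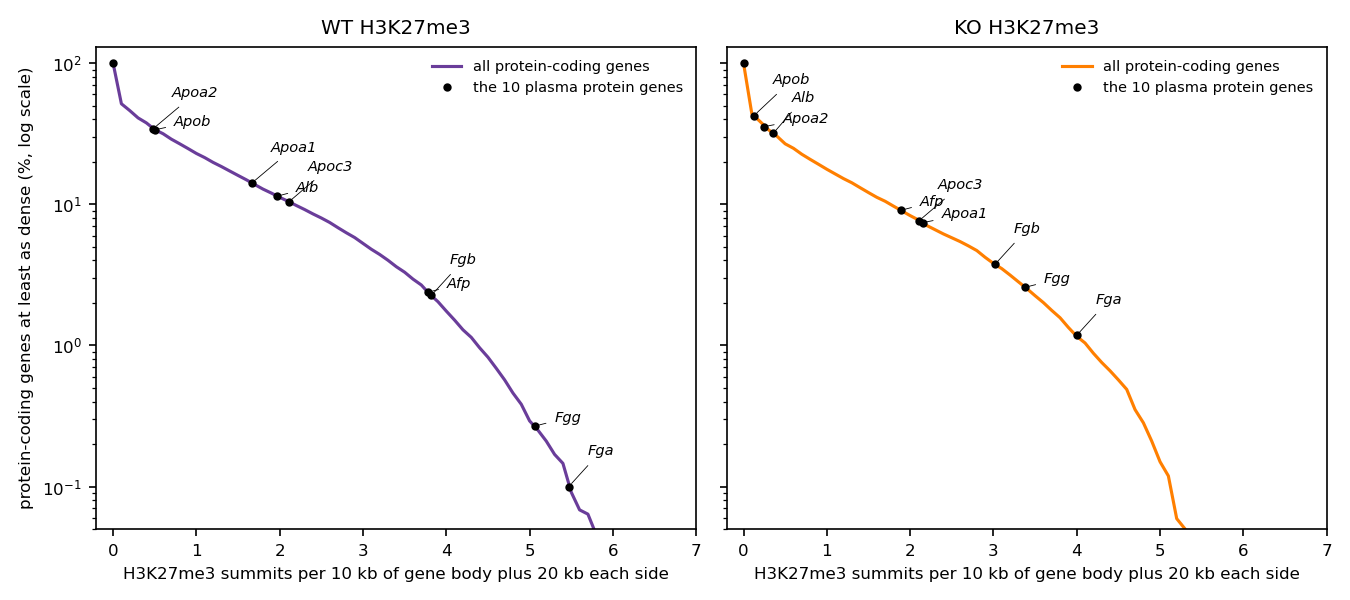
Each panel plots, for 1 genotype, the percentage of all protein-coding genes (y axis, log scale) with at least the H3K27me3 density on the x axis (summits per 10 kb of gene body plus 20 kb each side). Points mark the 10 plasma protein genes, of which Fga lies farthest right at 5.47 in WT and 4 in KO cells, and Ttr is the unlabelled point at 0.

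The fibrinogen locus (chr3:82987724-83069863) carried the densest mark. Fga (chr3:83026076-83033627), Fgb (chr3:83040141-83049863) and Fgg (chr3:83007724-83015049) encode the alpha, beta and gamma chains. The locus held 34 WT and 24 KO summits of H3K27me3, against 2.28 and 1.62 at the average of the chromosome. The strongest in WT cells had a −log10 q-value of 8.45, higher than 96.6% of its list, and lay in an intron of Gm30097, 10825 bp before the start of Fgg. The strongest in KO cells had 7.12, higher than 95.1% of its list, and lay in an Fgg intron, 1557 bp after its start. Summits fell within 2 kb of the start of Fga in both genotypes (4 in WT, 3 in KO) and of Fgg in both (1 in WT, 2 in KO), and of Fgb in KO cells only (1, at 1302 bp). Summits of 1 list at most 5 kb apart were joined into runs of at least 3. The WT summits then formed 1 run of 36 over 64.8 kb, across all 3 genes, of which 33 lay in the locus and 3 beyond its Fgg edge, and runs this long reached 0.552% of coding genes. In KO cells the same rule gave 3 runs of 10.4, 8.49 and 27.2 kb. This contrast in length depended on the joining distance. At 10 kb the locus was 1 run in both genotypes, of 71.3 kb in WT and 58.3 kb in KO cells, whereas at 3 kb the longest runs were 15.2 kb in WT and 12.5 kb in KO cells.

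Of the 24 KO summits at the fibrinogen genes, 23 had a WT summit within 1 kb, beside 69.1% over the windows of all coding genes. Of the 34 WT summits, 24 had a KO summit within 1 kb, beside 55%. Such shares rise with the density of the summits, which was high here. In the locus, summits ran from 82989076 to 83053329 in WT and from 82990307 to 83048561 in KO cells. On one side a Ctcf and Rad21 pair stood between the mark and a stretch without it. The Ctcf summit at 83053936, 4073 bp before the start of Fgb, had a −log10 q-value of 25.9, and the Rad21 summit 3 bp from it had 14.3. Within 20 kb on the fibrinogen side lay 10 WT and 8 KO H3K27me3 summits. The last was a lone WT summit at 83053329, 607 bp from Ctcf, while the WT run ended 7075 bp and the last KO summit lay 5375 bp short of it. Within 20 kb on the side of Plrg1, a splicing factor gene, lay 0 in both genotypes. A Brg1 summit with a −log10 q-value of 2.56 lay 801 bp from this Ctcf summit, and it was the only Brg1 summit of the locus. At the other end, before Fgg, the strong Ctcf summits at 82995488 (13.5) and 82999218 (27) had H3K27me3 on both sides in both genotypes. Within 20 kb below and above the first lay 7 and 8 WT and 3 and 5 KO summits, and around the other 8 and 10 WT and 4 and 5 KO summits. Between them and Fgg lay a Rad21 summit at 83002159 with a −log10 q-value of 13.5, higher than 89.5% of its list, and no Ctcf summit within 1 kb. The 2 Arid1a summits of the locus, in a UTR of Fgg (2.7) and an intron of Fga (2.56), were at or below the median of their list.

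**Figure D3:**
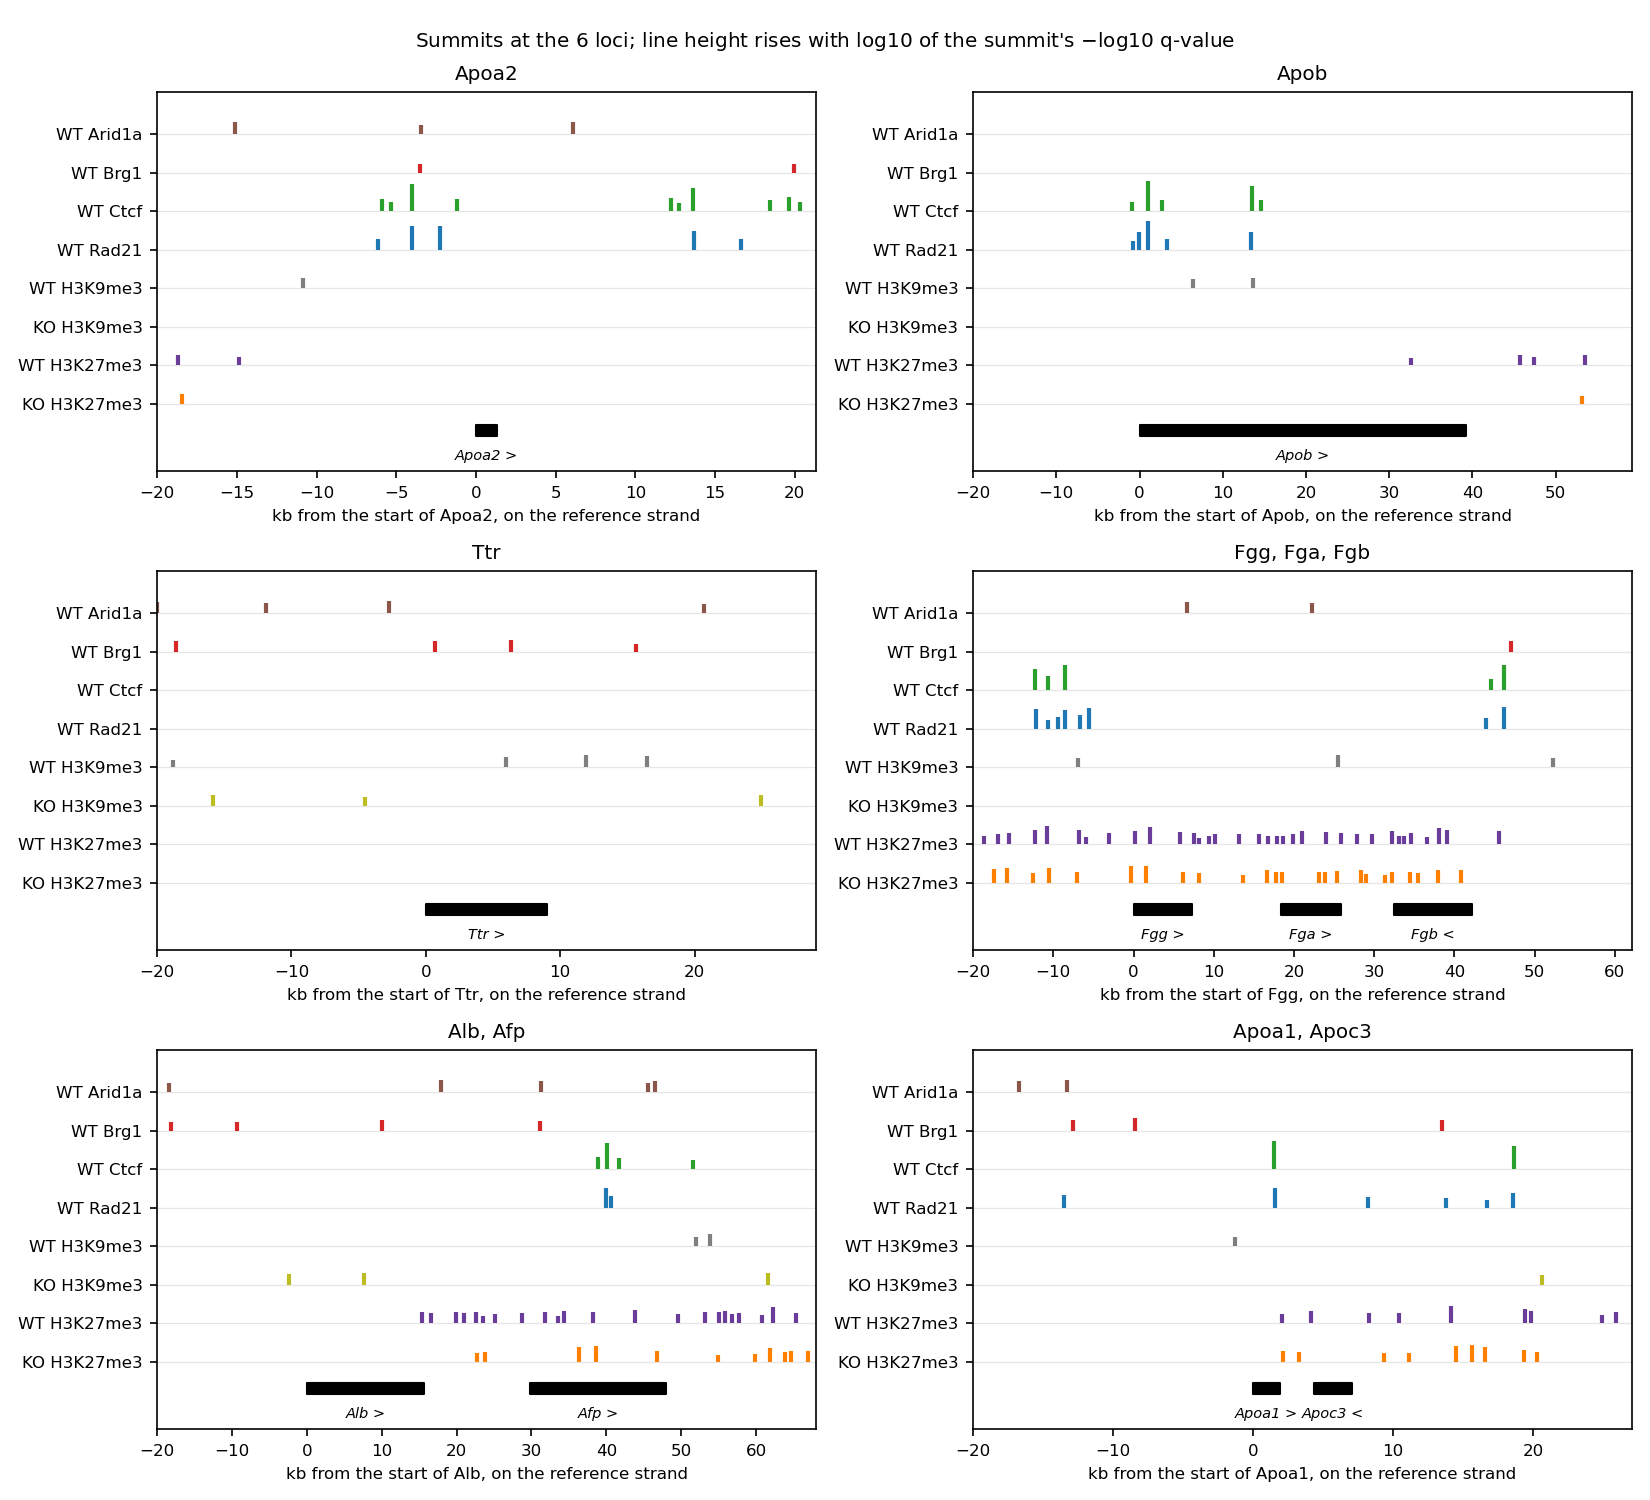
Summits of the 8 peak lists (rows) at the 6 loci (panels), with the distance in kb from the start of the first gene of the locus on the reference strand as the x axis and genes as black bars (> and < give their strand). Line height rises with the logarithm of the summit's −log10 q-value. H3K27me3 covers the 3 fibrinogen genes and Afp, begins after Apoa1, and is at 0 around Ttr.

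Alb (chr5:90460897-90476602) and Afp (chr5:90490737-90508907) are neighbours on the same strand, and only the downstream part of the pair was covered. The locus held 22 WT and 11 KO summits of H3K27me3, against 5.08 and 4.3 at the chromosome average. Of these, 8 WT and 7 KO summits lay within 1 kb of a summit of the other list (36.4% and 63.6%, beside 55% and 69.1% over all coding windows). In WT cells the first of the window was at 90476304, in the last stretch of Alb, and from there summits continued through the intergenic space, Afp and the neighbouring albumin family gene Afm. No other H3K27me3 summit lay in the body of Alb in either genotype, and none lay within 2 kb of its start. Afp had 5 WT and 3 KO summits in its body, and 2 WT and 0 KO summits within 2 kb of its start. The window of Alb, most of whose summits lie between the genes, held 11 in WT and 2 in KO cells, the latter at 90483594 and 90484744. The Afp intron and exon summits in KO cells at 90497296 (4.77) and 90499544 (5.44) were stronger within their list than 84.5% and 89.5% of summits. The run rule gave WT runs of 22.8 kb over the end of Alb and the first part of Afp and of 23.2 kb at Afm, and in KO cells 1 run of 15.2 kb at Afm. With a joining distance of 10 kb the runs were 57.5 kb in WT and 33.7 kb in KO cells.

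The albumin pair also differed in architecture. The window of Alb held 0 Ctcf and 0 Rad21 summits, and that of Afp held 4 and 2. The strongest, Ctcf at 90500961 (32.3) with Rad21 47 bp away (11.2), lay in an Afp intron 10224 bp after its start, and had H3K27me3 on both sides (9 and 7 WT, 4 and 3 KO summits within 20 kb). SWI/SNF was called at Afp near the start. Brg1 at 1283 bp (2.14) and Arid1a at 1456 bp (2.7) after the start lay 173 bp apart in an intron. Afp was the only one of the 10 genes with an Arid1a summit within 2 kb of the start used here, the outermost in GENCODE. At Alb, Brg1 was called in an intron 10083 bp after the start (2.56), and a Brg1 and Arid1a pair lay 231 bp apart at the upstream edge of the window (2 and 2.13). H3K9me3 lay at different places in the genotypes. Alb had 0 summits in WT and 2 in KO cells, one 2437 bp before the start (2.47) and one in a coding exon (3.11), while Afp had 2 in WT and 1 in KO cells.

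Apoa1 (chr9:46228580-46230466) and Apoc3 (chr9:46232933-46235636) encode the main protein of high-density lipoprotein and an inhibitor of triglyceride clearance, and Apoa4 follows them. The locus held 9 H3K27me3 summits in each genotype, against 3.08 and 2.51 at the chromosome average. In each list 6 of 9 lay within 1 kb of a summit of the other list (66.7%, beside 55% of WT and 69.1% of KO summits over all coding windows). The mark lay on one side of the stronger Ctcf site of the locus and on both sides of the weaker. The Ctcf summit at 46230039 in the Apoa1 coding exon, 1459 bp after its start, had a −log10 q-value of 44.5, higher than 93.3% of its list, and Rad21 lay 90 bp away (11.6). The first H3K27me3 summits were at 46230653 in WT and 46230699 in KO cells. Within 20 kb on the Apoc3 side lay 7 WT and 9 KO summits, and on the other side, which holds the kinase gene Sik3, lay 0 in both. The weaker Ctcf summit, at 46247203 (19.4), had Rad21 48 bp away (5.38). Within 20 kb below and above it lay 5 and 7 WT and 7 and 4 KO summits of H3K27me3. The strongest H3K27me3 summit in WT cells was in a coding exon of Apoa4 (7.66, above 95.6% of the list), and in KO cells between genes beside it (6.28, above 93.3%). Brg1 was called at 3 places and Arid1a at 2, and 4 of these 5 lay in Sik3, on the side without H3K27me3. The other was a Brg1 summit in an intron of Apoa4, 266 bp from a weak Rad21 summit (2.14).

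Of the 10 strong Ctcf sites at the loci, 2 had at least 5 H3K27me3 summits within 20 kb on 1 side and 0 on the other in both genotypes, those at Fgb and Apoa1. Of 23378 Ctcf summits of this strength with a Rad21 summit within 1 kb in the genome, 2.75% met the rule. That share includes sites with no H3K27me3 nearby, which cannot meet the rule, and the loci hold more of the mark than their chromosomes. Whether Ctcf bounds the mark more often here than at other marked sites was not tested. The sites at 82995488, 82999218, 90500961 and 46247203 had at least 5 WT summits on each side. The site in Tomm40l before Apoa2 came close to the rule, with 5 and 0 WT and 4 and 0 KO summits.

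**Figure D4:**
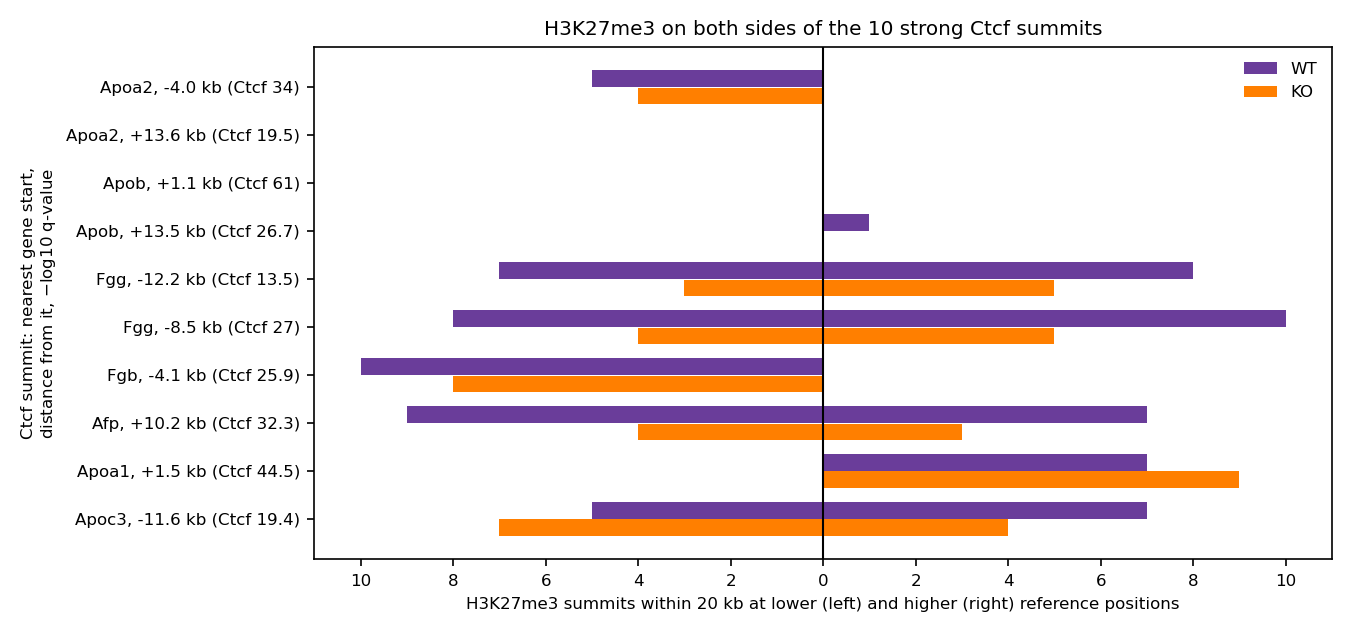
Number of H3K27me3 summits in WT and KO cells (bars) within 20 kb below (left) and above (right) each of the 10 Ctcf summits that reached a −log10 q-value of 10, named by the nearest start of a plasma protein gene and the signed distance from it. Bars of both genotypes stand on 1 side only at Fgb (10 WT, 8 KO), Apoa1 (7 WT, 9 KO) and the first Apoa2 site (5 WT, 4 KO), and a single WT summit stands on 1 side at the second Apob site.

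Apoa2 (chr1:171225054-171226379), the second protein of high-density lipoprotein, lies in a gene-dense stretch and held the most Ctcf summits of the 10 genes (10, or 2.42 per 10 kb). It had 5 Rad21 summits, 3 Arid1a and 2 Brg1 summits. The Ctcf summit at 171221036 in Tomm40l, a mitochondrial import gene, had a −log10 q-value of 34 with Rad21 30 bp away (19.8). Brg1 and Arid1a lay 536 and 587 bp from this Ctcf summit, 51 bp from each other. The second RefSeq promoter entry of Apoa2 ends at 171221563, so these Brg1 (171221572) and Arid1a (171221623) summits lay just after that start. A Rad21 summit of the same strength (19.8) lay at 171222771, 2283 bp before the start of Apoa2, without Ctcf within 1 kb. H3K27me3 had 2 WT and 1 KO summits, close to the 1.48 and 1.03 at the chromosome average, all between 18716 and 14862 bp before the start. By the run rule they belonged to runs that began outside the window, of 8 summits in WT and 6 in KO cells.

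Apob (chr12:7977648-8016835), the scaffold protein of very low- and low-density lipoproteins, had the strongest Ctcf and Rad21 of the 6 loci. Ctcf at 7978700, in an intron 1052 bp after the start, had a −log10 q-value of 61, higher than 97.1% of its list, and Rad21 25 bp away had 43, higher than 98.8%. A further Rad21 summit (7.9) lay 112 bp before the start, in the promoter bases printed above. A second strong Ctcf site (26.7) lay in an intron at 13491 bp with Rad21 144 bp away (7.9). Apob was the only one of the 10 genes with 0 Arid1a and 0 Brg1 summits in its window, and the nearest to its start were 31300 and 59129 bp away. The chromosome average gives 1.03 and 1.36 for this window, so few were to be expected at that density. H3K27me3 had 4 summits here in the WT list and 1 in the KO list, none within 2 kb of the start, and 2 H3K9me3 summits in WT, both in introns, and 0 in KO cells.

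Ttr (chr18:20665280-20674321), the thyroxine carrier, was the opposite case. Its window held 0 Ctcf, 0 Rad21 and 0 H3K27me3 summits, beside 1.47, 1.77, 1.66 (WT) and 1.29 (KO) at the chromosome average, so few were to be expected at that density. It held 4 Arid1a and 4 Brg1 summits, against 2.28 and 2.47. Brg1 lay in introns of Ttr 682 and 6317 bp after the start (2.56 and 3.16). No Arid1a summit of the window had Brg1 within 1 kb, the closest pair being 1359 bp apart. H3K9me3 had 4 summits in WT and 3 in KO cells, at different places.

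Considered by factor, an Arid1a summit lay in the window of 9 of 10 genes and Brg1 in 7, beside 73.7% and 74.8% of coding genes. Within their lists these SWI/SNF summits were of ordinary strength. The 16 Arid1a summits had −log10 q-values of 2.13 to 3.33 and the 14 Brg1 summits of 1.74 to 3.73, and their medians of 2.7 and 2.56 equalled those of the whole lists. None reached 5, a value that only 2.49% and 3.94% of the lists reached. Within 2 kb of the start, Arid1a was called at 1 gene (Afp) and Brg1 at 2 (Afp and Ttr), beside 35.2% and 39.6% of coding genes. The second RefSeq start of Apoa2, next to a Brg1 and Arid1a pair, was not among the starts counted. Of the 14 Brg1 summits, 4 had Arid1a within 1 kb (28.6%, exact 95% binomial interval 8.39 to 58.1, counting error only), beside 31.1% over the windows of all coding genes. Likewise 4 of 14 had Rad21 within 1 kb (28.6%, 8.39 to 58.1, beside 30.9%), at Apoa2, Fgb and 2 places around Apoa1 and Apoc3, but 1 of 14 within 500 bp (7.14%) and 0 within 250 bp. The interval at 1 kb in each case held the value of all coding windows.

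Ctcf and Rad21 were each called in the windows of 8 of 10 genes, beside 84.9% and 84.3%, with Alb and Ttr the same 2 exceptions. Of the 26 Rad21 summits 18 had Ctcf within 1 kb (69.2%, exact 95% interval 48.2 to 85.7, beside 53.4% over all coding windows). Within 2 kb of the start, Ctcf was called at 3 genes (Apoa1, Apoa2 and Apob) and Rad21 at 4 (Apoa1, Apob, Apoc3 and Fgb), beside 42.5% and 50.6%. In the plot of summit strengths, 10 of 26 Ctcf and 8 of 26 Rad21 summits reached a −log10 q-value of 10, beside 27.2% and 13.7% of the whole lists.

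**Figure D5:**
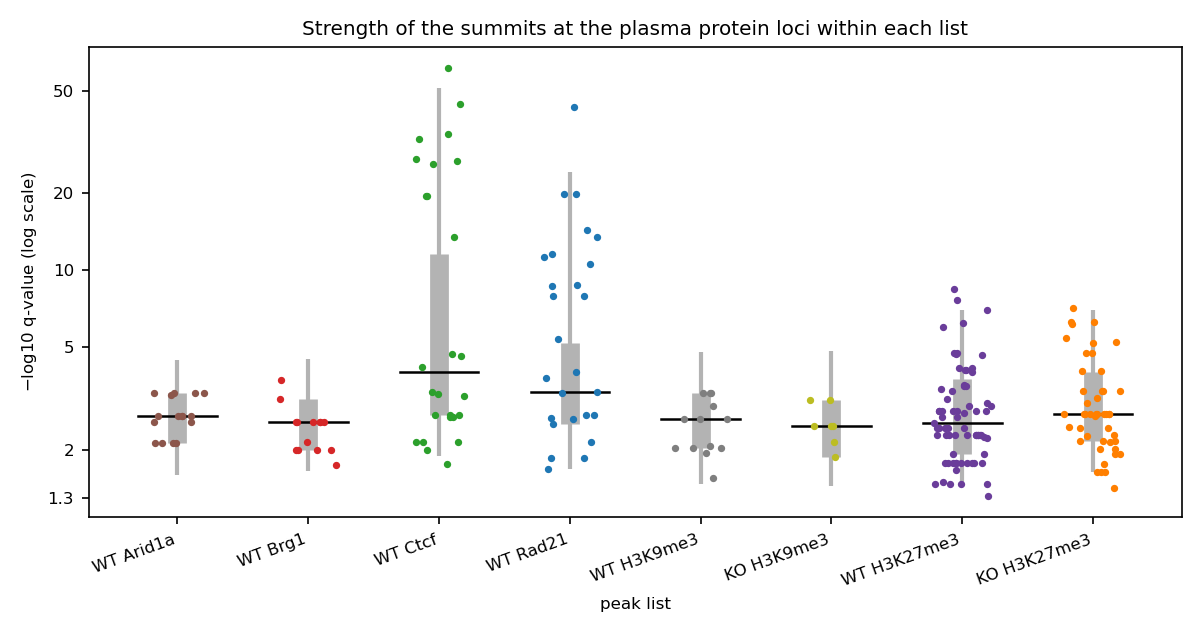
The −log10 q-value (y axis, log scale) of every summit at the 6 loci (points, spread sideways for legibility) in each of the 8 peak lists (x axis). Grey bars give the range from the 5th to the 95th percentile (thin) and the middle 50% (thick) of the whole list, and black lines its median. The highest points are Ctcf at 61 and Rad21 at 43, both in Apob, and no Arid1a, Brg1 or H3K9me3 point reaches 5.

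For the marks, the loci held 0.648 KO summits per WT summit of H3K27me3 (46 to 71, exact 95% interval 0.437 to 0.952, counting error only). The ratio was 0.785 over the windows of all coding genes and over the whole lists, inside that interval. With lists of equal size (the strongest 70408 summits of each) it was 0.804 at the loci (37 to 46). The whole lists then have a ratio of 1 by construction, and the ratio over all coding windows was not computed at that size. In the full lists it was 0.5 at Alb and Afp (0.219 to 1.08), 0.706 at fibrinogen (0.4 to 1.23) and 1 at Apoa1 and Apoc3 (0.352 to 2.84), and these intervals overlapped. Of the 9 genes with the mark, 4 (Alb, Afp, Apoa2 and Apob) had at least 2 times as many WT as KO summits and 0 the reverse, beside 39.3% and 7.87% of coding genes with any. None of the 10 genes had H3K27me3 in 1 genotype only, beside 9.58% (WT only) and 1.72% (KO only) of all coding genes, with or without the mark. Near the start it was called at 4 genes in WT (Afp, Apoc3, Fga and Fgg) and at 3 in KO cells (Fga, Fgb and Fgg), beside 23.4% and 19.8%. A run of at least 3 summits overlapped the body of 6 genes in WT (Alb, Afp, Apoc3, Fga, Fgb and Fgg) and of 3 in KO cells (Fga, Fgb and Fgg), beside 18.7% and 15.4%. With a joining distance of 10 kb these were 6 and 5 genes (beside 21.3% and 17.7%), and with 3 kb 4 and 2 (beside 15.7% and 12.9%). Both counts therefore depend on that distance.

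H3K9me3 was sparse. It was called in the windows of 9 genes in WT and 5 in KO cells, beside 86.8% and 82.0%, and near the start of 1 gene in WT (Apoa1, 1326 bp before its start) and 0 in KO cells, beside 38.7% and 14.0%. Apoa2, Apob, Fga, Fgb and Fgg had it in WT cells only (beside 11.7% of coding genes) and Alb in KO cells only (beside 6.98%). These counts rest on 13 WT and 7 KO summits, a ratio of 0.538 (exact 95% interval 0.182 to 1.45), which holds the 0.736 of all coding windows. None of the 13 WT summits had a KO summit within 1 kb (up to 24.7% by the exact interval), beside 26.1% over all coding windows. The 20 summits lay between 1.55 and 3.31, and their medians (2.64 in WT and 2.47 in KO cells) equalled those of the whole lists.

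A wider list of 66 liver plasma protein genes, of which 65 matched an annotated symbol and 3 lie in the windows above (Apoa4, Apoa5 and Afm), gave a less even picture. H3K27me3 lay in the window of 43 of 65 genes in WT (66.2%) and of 34 in KO cells (52.3%), with medians of 0.47 and 0.128 summits per 10 kb, between those of the 10 genes and of all coding genes. The highest in WT cells were Ambp, the precursor of a protease inhibitor (21 summits, 4.08 per 10 kb), and the retinol carrier Rbp4 (19, 3.91). In KO cells they were the fibrin-cleaving enzyme precursor Plg (26, 3.22 per 10 kb) and the coagulation factor F7 (16, 3.21). The lowest, at 0 in WT cells, were 22 genes, among them Cp, F9, Serpinc1 and Lipc. Arid1a and Brg1 were densest at Apom, the apolipoprotein that carries sphingosine-1-phosphate (11 and 7 summits, 2.55 and 1.63 per 10 kb), which had 0 H3K27me3 summits in both genotypes. Arid1a lay within 2 kb of the start of 9 of 65 genes (13.8%) and Brg1 of 10 (15.4%), under the 35.2% and 39.6% of all coding genes given above.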

How the data were processed

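Peak lists from ChIP-seq in AB17 cells were used for 8 of 10 samples, grouped by genotype and antibody from their titles, with 1 library per group. Per the study's methods and the labels, the authors aligned reads to mm10 with Bowtie2, filtered them with SAMtools and Picard, and called peaks with MACS2 against input (tool versions are not given in the sources used here). Each deposited list gives a 1-base summit and its −log10 q-value. That unit was read from the values, whose minimum was the 1.3 that a q-value of 0.05 gives. Depth is unknown from the lists. A broad mark called this way appears as strings of summits, so counts reflect domain width and depth together.

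All summits on the 19 autosomes, X and Y were placed on GENCODE vM21 genes, and 0 lay beyond a chromosome end. Gene windows were the body plus 20 kb, the start the outermost annotated start (within 2 kb), and partners lay within 1 kb. All 21938 protein-coding genes treated alike are the background. A summit was placed as coding exon, UTR, non-coding exon, intron or intergenic, in that order. Intervals are exact binomial at 95% (scipy 1.17.1) and cover counting error only. No test of genotype was possible. Sequences were read with pysam 0.24.0 from GRCm38.p6, and counting was tested on simulated lists. The named genes are the 10 genes, genes lying in their windows, and the highest and lowest of the 66-gene list. Some 0-valued genes were named after their values were seen. The genes and lists were chosen with earlier results of these data known. Alternatives were other windows and distances, a minimum −log10 q-value of 3, equal list sizes of 70408, merged summits and other run distances.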

Additional observations from a re-analysis of the deposited data

How the results depend on the processing

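Of 118 values under the planned settings, spread over 22 results and leaving out run lengths, 87 stayed within 1.5 times of the count or inside the counting interval, 31 moved and 0 reversed. No paired analysis was possible because each group is 1 library, which also precludes leaving out a replicate. Among these, counts of genes with a summit near the start moved often. With 1 kb in place of 2 kb, it was 0 for Arid1a, 1 for Brg1, 1 for Ctcf, 1 for Rad21, 0 for WT H3K9me3 and 2 for WT H3K27me3. With 5 kb, it was 4 for Arid1a, 4 for Brg1, 2 for KO H3K9me3 and 5 for KO H3K27me3. With any annotated transcript start, it was 5 for KO H3K27me3. With summits kept only from a −log10 q-value of 3 upward, it was 0 for Arid1a, 0 for Brg1, 2 for Rad21, 0 for WT H3K9me3 and 1 for WT H3K27me3, and with lists of equal size 0 for WT H3K9me3. For these counts and the window counts below, shares over all coding genes were not computed at the other settings. Whether the counts are high or low there is therefore not known.

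For the window counts, a minimum of 3 left Brg1 at 3 genes, WT H3K9me3 at 5 and KO H3K9me3 at 2. With 5 kb each side, H3K9me3 was at 5 genes in WT and 2 in KO cells, with 50 kb at 10 in KO cells, and with equal lists at 2 in KO cells. The share of Brg1 summits with Arid1a was 0% (of 2) at a minimum of 3. The share of Brg1 with Rad21 was 0% at that minimum, 7.14% within 500 bp and 0% within 250 bp, and of Rad21 with Brg1 0%, 3.85% and 0%. The cause was not tested. H3K27me3 window counts stayed within 1.5 times, and the genotype ratios inside their counting intervals (0.617 to 0.81 for H3K27me3, 0.429 to 0.829 for H3K9me3). Run distances of 3 and 10 kb were chosen after seeing the data, and 9 of 12 run lengths moved. The count of genes under a run was 4 at 3 kb and 6 at 10 kb in WT cells, and 2 and 5 in KO cells. The distances gave a WT run at Apoc3 of 0 and 39.7 kb (12 kb at 5 kb) and at Afp of 2.54 and 57.5 kb. Without depth or replicates, a count of 0 does not show absence.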
